A study of Homo sapiens with 28 samples.

Results

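The binding of the CTD, the carboxy-terminal domain of the histone methyltransferase ASH1L, and the mark H3K36me2 were compared across the genome 3 h after UV irradiation of U2OS cells, a human osteosarcoma line. The members were the 3 peak lists of the CTD and the 2 peak lists of H3K36me2 at 3 h, which are 5 of the 10 lists of the series. They came from 7 of its 28 samples (3 CTD and 4 H3K36me2 libraries), since each H3K36me2 replicate was sequenced both single-end and paired-end. They were taken by assay and time from their labels. The CTD carried a Flag tag, was expressed from a transfected pDEST vector in ASH1L-/- cells and was precipitated with anti-Flag antibodies. H3K36me2 was precipitated from wild-type (WT) cells, which have their own ASH1L. Cells of both kinds had received 20 J/m2 UV-C. The remaining 5 lists came from the same cells without UV (CTD, 3 lists; H3K36me2, 2 lists) and were used to test whether a contrast changed after UV. They also entered the limma fits below, where all 10 lists share 1 estimate of the spread.

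ASH1L belongs to the trithorax group of chromatin regulators, and its SET domain transfers methyl groups to lysines of histone H3. H3K36me2 is the dimethylated form of lysine 36, a mark written mainly by the NSD enzymes and by ASH1L, which usually covers wide intergenic and genic domains and is scarce at active gene starts. In global-genome nucleotide excision repair, the branch of repair that removes UV lesions from the whole genome, ASH1L is recruited by the damage sensor DDB2. The question here was whether the domain of the enzyme and the mark lay in the same kinds of sequence after UV.

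Each list held 500000 peaks, so the genome-wide density was 172 peaks per Mbp in each of the 5 lists and only the placement of peaks could differ. CTD peaks were narrower, with a median width of 474, 457 and 496 bp in lists 1, 2 and 3, all below the 556 bp of the narrower H3K36me2 list. They covered 9.92 to 10.8% of the genome, against 13.8 to 14.2% for H3K36me2. The CTD lists were also weaker: 32380 to 42078 of their peaks had a −log10 p of 2 or more, compared with 221478 and 224811 peaks of H3K36me2. That value is the calling cutoff given in the study's methods, so most peaks of every list used here lay below it, down to a −log10 p of 1.29 in the CTD lists and 1.35 in those of H3K36me2. Whether the lists were cut at 500000 peaks is not given in the sources used here. Peaks on ASH1L, to which the construct itself contributes, were left out (39, 59 and 49 CTD peaks and 16 and 11 H3K36me2 peaks). The antibody, the genotype, the control (pooled empty-vector ChIP for the CTD, pooled input for H3K36me2) and the strength of the lists all differed between the assays, and their parts in any contrast below cannot be told apart. Since the lists of an assay shared 1 pooled control, the SD between them does not hold the error of that control. The ASH1L-/- cells were a separate edited line, and the CTD level was set by the vector.

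Some sequences lay under peaks of a single assay. Of 19969 starts of protein-coding genes, 101 lay under a CTD peak in 3 of 3 lists and had no H3K36me2 peak within 5 kb, and 4 showed the reverse (101 of 407 starts under a CTD peak in every list and 4 of 1071 under an H3K36me2 peak in both). Of all starts, 37.7 and 38.4% lay more than 5 kb from a peak of each H3K36me2 list but 10.3 to 13.2% from one of each CTD list, so the counts of the kinds cannot be read against each other. The 101 of 407 and the 4 of 1071 are smaller shares than these values for all starts, which are per list. No peak of any list of either assay lay within 5 kb of 3.86% of all starts. Neither count is therefore a result about these starts. The 5 leading starts of the first kind, ranked by the lowest fold enrichment, belonged to ALG5 (a glucosyltransferase of N-glycosylation), XAB2 (an XPA-binding protein of splicing and transcription-coupled repair), NUMA1 (a spindle pole protein), SIGLEC12 (a sialic acid-binding lectin) and PCDHGA7 (a gamma protocadherin). For 2 of them the 300 bases upstream touched no annotated exon, and these are printed 5′ to 3′ on the strand of the gene with each CpG in capitals, since the assays were compared by GC content. The SIGLEC12 sequence is on the minus strand at chr19:51501801-51502100 and the PCDHGA7 sequence on the plus strand at chr5:141382439-141382738 (hg38).
SIGLEC12: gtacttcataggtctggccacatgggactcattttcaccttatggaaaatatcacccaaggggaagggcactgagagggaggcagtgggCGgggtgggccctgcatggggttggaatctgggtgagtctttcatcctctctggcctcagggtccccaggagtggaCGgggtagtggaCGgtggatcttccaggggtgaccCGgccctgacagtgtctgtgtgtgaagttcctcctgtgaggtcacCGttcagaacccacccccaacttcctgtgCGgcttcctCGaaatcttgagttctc
PCDHGA7: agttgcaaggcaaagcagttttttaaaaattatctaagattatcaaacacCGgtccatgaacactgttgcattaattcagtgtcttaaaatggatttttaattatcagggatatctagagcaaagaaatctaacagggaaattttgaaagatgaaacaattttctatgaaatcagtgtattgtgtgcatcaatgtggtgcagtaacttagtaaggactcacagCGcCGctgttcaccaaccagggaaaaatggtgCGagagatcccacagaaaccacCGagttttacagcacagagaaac
The SIGLEC12 sequence had a GC content of 57.7% and 7 CpG, and that of PCDHGA7 37.7% and 5 CpG, so the shared peak did not come with a single base composition. The CTD peak over the SIGLEC12 start had a fold enrichment of 1.93, 1.90 and 1.85 in lists 1 to 3, and the nearest H3K36me2 peaks lay 58676 and 51953 bp away. Over the PCDHGA7 start the values were 1.85, 1.85 and 2.01, with H3K36me2 peaks 6699 and 6731 bp away. At XAB2 they were 2.52, 1.89 and 1.92, with H3K36me2 peaks 67382 and 13885 bp away. The median of a CTD list was 1.77 to 1.81, and the value at XAB2 in list 1 was the farthest above it of those given here.

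Conversely, 326591 peaks of H3K36me2 list 1 overlapped a peak of list 2, and the shared part was taken as a site. Of these sites, 6141 (1.88%) had no CTD peak of any list within 5 kb. The central 300 bases of the strongest of these, ranked by the lower fold enrichment, are given on the plus strand of hg38, again with CpG in capitals. They show that sequence under H3K36me2 peaks alone could also be GC-rich. This site is at chr13:109870303-109870602, in no annotated gene and 83.7 kb from IRS2, the nearest coding gene. It lies in a run of 30 bins of chromosome 13, described below, with only 9.36 ± 0.986 CTD peaks per Mbp. CTD peaks were scarce there without UV too, so the site is not typical of the genome. How many of the 6141 sites lie in that run was not counted.
H3K36me2 site: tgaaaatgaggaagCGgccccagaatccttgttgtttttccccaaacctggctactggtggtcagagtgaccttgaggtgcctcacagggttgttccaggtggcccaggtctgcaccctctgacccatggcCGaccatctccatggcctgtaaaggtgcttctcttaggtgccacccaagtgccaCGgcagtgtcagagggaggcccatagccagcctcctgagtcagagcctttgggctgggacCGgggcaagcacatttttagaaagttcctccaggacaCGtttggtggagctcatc
The site had a GC content of 57.0%, a fold enrichment of 2.91 and 3.03 in the H3K36me2 lists, and its nearest CTD peak 14624 bp away. The 4 gene starts under an H3K36me2 peak in both lists with no CTD peak within 5 kb were CSNK1A1L (a casein kinase gene), DDX53 (a helicase gene expressed in testis), OR8D2 (an olfactory receptor gene) and PPP4R3C (a subunit of protein phosphatase 4). Their genes were short, with a median length of 2.77 kb, and the median GC content within 1 kb of these starts was 44.4%. It was 57.1% for the 101 starts under a CTD peak in every list with no H3K36me2 peak within 5 kb.

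The largest difference along genes was at their starts (within 1 kb either side). Here the CTD lists had 229.3, 246.8 and 317.1 peaks per Mbp (264.4 ± 46.5, SD, n = 3) and the H3K36me2 lists 95.1 and 101.1 (98.1 ± 4.25, SD, n = 2), a log2 ratio of 1.42. The ratio was 0.57 with all annotated genes in place of protein-coding ones. Every CTD list lay above both H3K36me2 lists, and the CTD exceeded its genome-wide density where the mark fell below it. The rest of protein-coding genes had 191.5 ± 1.59 CTD and 156.1 ± 1.35 H3K36me2 peaks per Mbp (log2 ratio 0.29), without overlap between lists. Intergenic sequence was the opposite, with 153.8 ± 2.34 CTD and 186.0 ± 0.983 H3K36me2 peaks per Mbp (log2 ratio −0.27). In a two-sided exact permutation test of 3 lists against 2, p was 0.2 for each of the 3 features, which is the smallest value this design allows, so no density difference could pass 0.05. Of 95 classes of sequence compared in this way, 89 had no overlap between the lists of the CTD and of H3K36me2.

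The shape of the coverage around starts differed as well as its level. CTD coverage, as a ratio to the genome-wide coverage of the list, was highest exactly at the start in each list, at 1.54, 1.98 and 2.85. H3K36me2 coverage was lowest at position −250 bp relative to the start, at 0.498 and 0.520, and highest at −1500 bp, at 0.970 and 0.943. At the start itself H3K36me2 coverage was 0.594 ± 0.0233 (SD, n = 2) over all starts and 1.18 ± 0.003 at those under 45% GC. A CTD peak covered 3195 (16.0%), 3915 (19.6%) and 6157 (30.8%) starts in lists 1 to 3, while H3K36me2 peaks covered 1589 (7.96%) and 1734 (8.68%). From a start, the nearest CTD peak was a median 982, 835 and 355 bp away and the nearest H3K36me2 peak 2775 and 2781 bp. List 3 had the most CTD peaks at starts by a wide margin, and without it the log2 ratio at gene starts was 1.28.

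Few starts carried a peak in every list of an assay. A CTD peak was present in 3 of 3 lists at 407 starts (2.04%) and an H3K36me2 peak in 2 of 2 lists at 1071 (5.36%), with 22 starts (0.11%) in both sets. With sets this small, few shared starts would arise even if the sets were unrelated. The 22 therefore do not show that the sets avoid each other. Starts under a CTD peak in every list had a median GC content of 55.9%, against 50.02% for those under an H3K36me2 peak in both lists and 55.02% for all starts. No CTD peak covered 10043 starts and no H3K36me2 peak 17717 starts. The CTD set needed 3 lists and the H3K36me2 set 2, so their sizes are not directly comparable.

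The excess of the CTD at starts grew with their GC content. At starts of less than 45% GC the CTD had 183.3 ± 10.3 and H3K36me2 172.4 ± 3.505 peaks per Mbp, and the lists of the assays overlapped (log2 ratio 0.088). Between 45 and 55% GC the log2 ratio was 1.24, and between 55 and 65% it was 1.99. At 65% GC or more the CTD lists had 237.5, 240.2 and 367.8 peaks per Mbp (281.8 ± 74.5) and the H3K36me2 lists 33.9 and 46.8 (40.3 ± 9.13), a log2 ratio of 2.79. H3K36me2 density fell at each step of this series, whereas CTD density rose up to the class of 55 to 65% GC (294.6 ± 68.6) and differed from there to the highest class by less than the SD between lists. The exact permutation p was 0.2 for the 3 upper classes and 0.4 for the lowest.

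Past the start, CTD peaks were spread evenly along protein-coding genes of 20 kb or more. Dividing each gene into 10 equal parts gave between 187.6 and 197.1 CTD peaks per Mbp, with 191.5 ± 1.77 in the first part and 197.1 ± 6.18 in the last. H3K36me2 density was 164.3 ± 0.25 in the first part and highest in the third (169.2 ± 1.18), and then declined to 133.9 ± 2.15 in the last. The log2 ratio of CTD to H3K36me2 was accordingly 0.22 in the first, 0.17 in the third and 0.56 in the last part, with no overlap of the lists in any of them. Beyond gene ends the assays separated further: 0 to 10 kb downstream the CTD had 220.5 ± 15.7 and H3K36me2 124.5 ± 2.12 peaks per Mbp (log2 ratio 0.82). Between 10 and 20 kb downstream the mark had partly recovered, to 139.5 ± 0.0487, and the log2 ratio was 0.64. Upstream of genes, 1 to 10 kb from the start, the log2 ratio was 0.44.

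**Figure D1:**
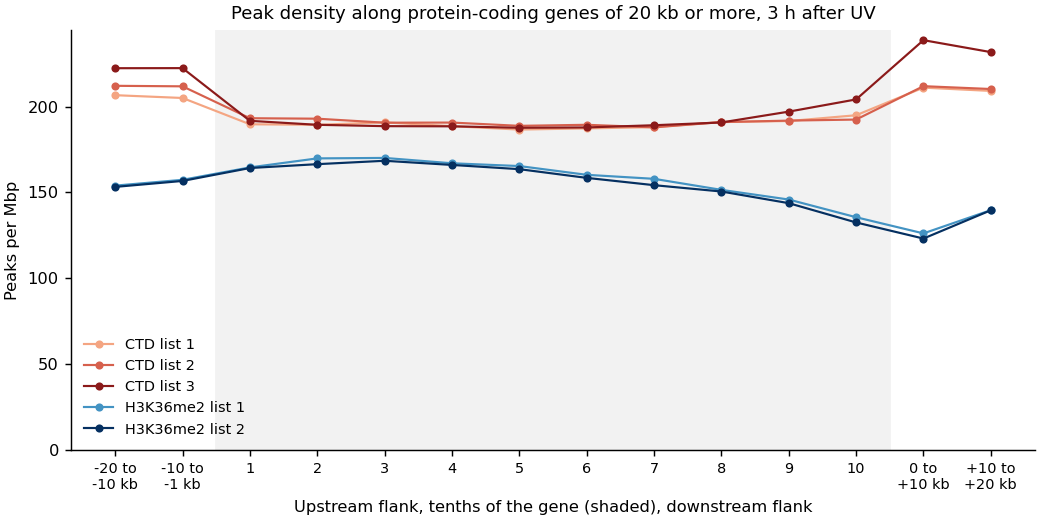
Peaks per Mbp (y axis) in each list along protein-coding genes of 20 kb or more, in 10 equal parts (shaded) with flanks up to 20 kb either side (x axis). The CTD mean stays between 187.6 and 197.1 through the gene and is higher in the flanks, while the H3K36me2 mean declines from 169.2 in the third part to 133.9 in the last.

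Gene length separated the assays in opposite directions. In genes under 20 kb the CTD lists had 217.5, 215.1 and 266.6 peaks per Mbp (233.1 ± 29.1) and H3K36me2 87.1 ± 1.35, a log2 ratio of 1.41. The ratio was 1.04 for genes of 20 to 100 kb and 0.15 for those of 100 to 500 kb. In genes of 500 kb or more it turned negative, with 154.4 ± 8.17 CTD and 196.0 ± 0.718 H3K36me2 peaks per Mbp (log2 ratio −0.34). None of these 4 classes had overlapping lists (exact permutation p = 0.2 each).

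Over bins of 1 Mb, CTD peaks followed GC content and H3K36me2 peaks did the reverse. In bins under 37% GC the CTD lists had 124.8, 121.0 and 98.4 peaks per Mbp (114.7 ± 14.3) and the H3K36me2 lists 193.8 and 191.1 (192.5 ± 1.91), a log2 ratio of −0.75. In bins of 46% GC or more the CTD had 230.8, 228.1 and 285.7 (248.2 ± 32.5) and the mark 105.0 and 107.0 (106.0 ± 1.45), a log2 ratio of 1.22. The order of the assays turned between the class of 37 to 41% GC (−0.32) and that of 41 to 46% (0.30). The contrast between the highest and the lowest class, 1.97 on the log2 scale, was 1.76 without CTD list 3.

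The same turn was found with gene density. Bins without a protein-coding start had 105.6 ± 10.4 CTD and 160.3 ± 1.06 H3K36me2 peaks per Mbp (log2 ratio −0.61). The ratio was −0.34 in bins with 1 to 4 starts, 0.051 with 5 to 9 and 0.62 with 10 to 19. In bins with 20 or more starts the CTD lists had 223.2, 226.0 and 264.2 (237.8 ± 22.9) and the H3K36me2 lists 102.5 and 103.6 (103.1 ± 0.713), a log2 ratio of 1.202. H3K36me2 was densest not in empty bins but in those with 1 to 4 starts (197.6 ± 0.387), and decreased on both sides of them. In empty bins both assays lay below their genome-wide density. Whether these bins hold more sequence where the study's read filters left no reads was not tested. The contrast of the densest with the empty bins was 1.81 with all lists and 1.65 without CTD list 3.

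GC content and gene density go together, so the ratio was also taken in classes of both. In bins with 1 to 4 starts the log2 ratio was −0.74 under 37% GC and 0.92 at 46% GC or more, and in those of 41 to 46% GC it was 0.029, with 194.5 ± 6.65 CTD and 190.6 ± 2.97 H3K36me2 peaks per Mbp and overlapping lists. Within bins of 41 to 46% GC, those with 20 or more starts had 209.8 ± 8.72 and 120.3 ± 1.24 peaks per Mbp (0.80), so here the density of the mark differed more with gene density than that of the CTD. The few bins of this GC class without a start (28.2 Mbp) had a ratio of 0.34. Within it, the contrast of bins with 10 or more starts with those of 4 or fewer was 0.60, and among bins with 1 to 4 starts the contrast of 41% GC or more with under 37% was 0.87. The bounds of these contrasts are narrower than those of the contrasts over all bins. The lowest ratio of the 20 combined classes was in bins under 37% GC without a start (110.2 CTD and 190.9 H3K36me2 peaks per Mbp on average, log2 ratio −0.80) and the highest in bins of 46% GC or more with at least 20 starts (257.7 and 87.9, log2 ratio 1.54).

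Features kept their order within GC classes. Gene starts had a log2 ratio of 0.52 in bins under 37% GC (196.7 ± 24.0 CTD and 136.9 ± 8.37 H3K36me2 peaks per Mbp) and 2.02 in bins of 46% GC or more (294.5 ± 61.0 and 71.9 ± 4.12). Gene bodies went from −0.60 to 1.41 between the same classes, and intergenic sequence from −0.82 to 0.89. The CTD was therefore denser than the mark at starts even in GC-poor bins, and denser in intergenic sequence of GC-rich bins, while in GC-poor bins the mark was the denser of the pair in gene bodies and between genes.

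At the scale of 1-kb windows the assays were less opposed. Both were scarce below 35% GC, with 93.7, 76.6 and 50.6 CTD peaks per Mbp (73.6 ± 21.7) and 57.7 ± 2.19 for H3K36me2, and their lists overlapped. H3K36me2 was densest in windows of 40 to 45% (237.8 ± 0.519) and 45 to 50% GC (242.7 ± 5.27), where the CTD had 205.4 ± 6.78 and 253.5 ± 27.1. At 60% GC or more H3K36me2 dropped to 99.4 ± 7.31, whereas the CTD lists had 229.5, 208.3 and 365.2 (267.7 ± 85.1), a log2 ratio of 1.39. The wide SD came from list 3, the densest CTD list in this class and the least dense below 35% GC. The median GC content of CTD peaks was 43.9, 44.6 and 46.7% and that of H3K36me2 peaks 46.1 and 46.2%, so peaks of the mark were not poorer in GC themselves, although they lay in GC-poorer bins.

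**Figure D2:**
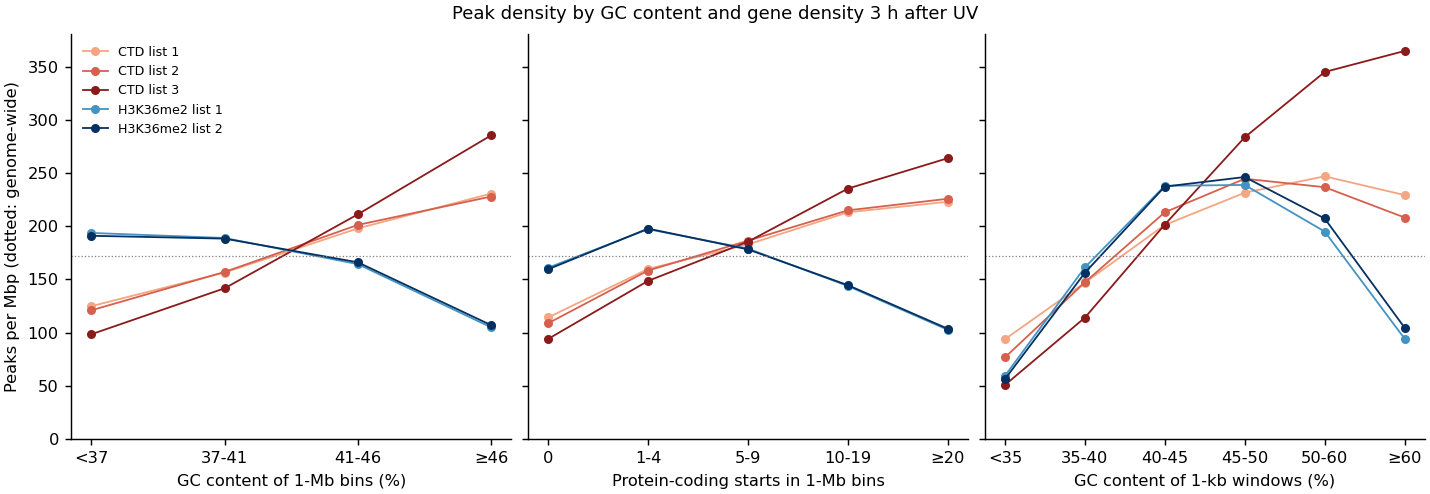
Peaks per Mbp (y axis) of each list by GC content of 1-Mb bins, by the number of protein-coding starts in 1-Mb bins and by GC content of 1-kb windows (x axes), with the genome-wide density as a dotted line. CTD and H3K36me2 lists cross between 37 and 46% GC and at 5 to 9 starts, while both are scarce in windows under 35% GC.

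Among chromosomes, the 3 with the highest ratio of CTD to H3K36me2 were 19, 22 and 17. On chromosome 19, the most gene-dense, the CTD lists had 206.6, 205.7 and 245.5 peaks per Mbp and the H3K36me2 lists 66.2 and 68.1, a log2 ratio of 1.70. It was 1.07 on chromosome 22 and 0.74 on chromosome 17. The 3 lowest ratios were those of chromosomes 13 (−0.58), 4 (−0.45) and 6 (−0.36), and on none of these 6 chromosomes did the lists of the assays overlap. The low ratio of chromosome 13 rested on a run of 30 bins described below. Its 68 other bins had 124.3 ± 9.32 CTD and 129.9 ± 1.79 H3K36me2 peaks per Mbp. Chromosome X was poor in peaks of both kinds, with 45.7 CTD and 49.1 H3K36me2 peaks per Mbp on average.

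Single bins were tested with limma on log2 of peaks per Mbp plus a pseudocount of 10, which understates the change of bins with few peaks. Of 2921 bins tested, 897 (30.7%) had more CTD and 1058 (36.2%) more H3K36me2 peaks at an adjusted p under 0.05 (Benjamini-Hochberg), together 66.9%. The lists of the assays did not overlap in 35.3% of bins in favour of the CTD and in 45.3% in favour of H3K36me2. The bins with more CTD had a median GC content of 44.9% and 11 starts, those with more H3K36me2 37.7% and 2 starts, and all bins 40.1% and 4 starts. Across bins the lists of an assay resembled each other (Pearson's r of 0.913 to 0.951 between CTD lists and 0.990 between H3K36me2 lists), while r between a CTD and an H3K36me2 list was 0.432 to 0.458 for CTD lists 1 and 2 and 0.226 to 0.247 for list 3. Neighbouring bins and shared controls enter these values, which serve only as a description. With GC content r was 0.415, 0.455 and 0.686 for the CTD lists and −0.335 and −0.313 for H3K36me2.

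The 5 bins with the largest excess of CTD peaks lay on different chromosomes. The leading one, from 42 to 43 Mb of chromosome 20, held no protein-coding start, and had 251, 200 and 247 CTD but 10 and 4 H3K36me2 peaks (log2 difference 3.85 ± 0.18, SE; limma adjusted p = 6.06e-06). It was an exception to the link with gene density. The bin at the end of chromosome 12, with POLE (the catalytic subunit of DNA polymerase epsilon) and the checkpoint gene CHFR, had 244, 214 and 335 CTD and 17 and 17 H3K36me2 peaks. The last bin of chromosome 19 held 27 starts, most of them of zinc finger genes, with TRIM28, the corepressor recruited by such proteins, and had 164, 157 and 183 CTD and 12 and 11 H3K36me2 peaks in 0.608 Mbp. The other two were on chromosome 1 (NPHP4 and KCNAB2; 165, 170 and 227 CTD, 13 and 9 H3K36me2 peaks) and chromosome 7 (ZNF722; 108, 94 and 87 CTD, 2 and 4 H3K36me2 peaks). That the lowest CTD list exceeded the higher H3K36me2 list was a condition for naming these 5 bins, not a result.

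The 5 bins with the largest excess of H3K36me2 all lay on the long arm of chromosome 13. The leading one, at 106 Mb with EFNB2 (an ephrin) and ARGLU1 (a splicing regulator), had 6, 6 and 5 CTD but 246 and 237 H3K36me2 peaks (log2 difference −4.01 ± 0.15, SE; limma adjusted p = 4.16e-06). The bin of IRS2, an adaptor of insulin signalling, had 12, 6 and 14 CTD and 298 and 265 H3K36me2 peaks. They were part of an unbroken run of 30 bins with more H3K36me2, from 81000001 to 111000000, whose bounds were drawn after the values were seen. In this run the CTD lists had 10.3, 8.35 and 9.42 peaks per Mbp (9.36 ± 0.986) and the H3K36me2 lists 148.3 and 141.3 (144.8 ± 4.96), 15.5 times as many. The 68 other bins of the chromosome had 124.3 ± 9.32 CTD and 129.9 ± 1.79 H3K36me2 peaks per Mbp. All 22 bins of the genome with fewer than 20 CTD peaks per Mbp in every list and more than 100 H3K36me2 peaks in both were in this run.

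The scarcity of CTD peaks in the run of chromosome 13 was also present without UV (10.1 ± 5.28 CTD and 136.7 ± 5.55 H3K36me2 peaks per Mbp). The CTD was measured in the ASH1L-/- line and H3K36me2 in WT cells, and whether these lines carry the same number of copies of this segment was not tested. Without the run, the contrast by GC content was 1.95 in place of 1.97 and that by gene density 1.78 in place of 1.81. Other long runs were less extreme. On chromosome 3, 37 bins from 142 to 179 Mb had 96.9 ± 10.4 CTD and 245.7 ± 3.48 H3K36me2 peaks per Mbp. On chromosome 19, 27 bins from 32 Mb to the end had 259.3 ± 20.7 CTD and 79.5 ± 2.44 H3K36me2 peaks per Mbp.

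Of 6777 protein-coding genes of 50 kb or more, limma called 3026 (44.7%) with more CTD and 837 (12.4%) with more H3K36me2 peaks, and the median log2 difference over all of them was 0.50. The lists did not overlap in 51.6% of genes in favour of the CTD and in 19.9% in favour of H3K36me2. Genes with more CTD peaks were shorter (median 88.3 kb) and of higher GC content (42.6%) than those with more H3K36me2 peaks (208 kb and 38.8%). No H3K36me2 peak was listed in either list for 328 genes, with a median of 11 CTD peaks a list, and no CTD peak in any list for 11 genes. A further 49 had neither. Without either H3K36me2 list at 3 h the number with more H3K36me2 was 455, and with peaks of a −log10 p of 2 or more the numbers were 249 and 78, with 13 of the 20 genes named below no longer called.

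The 10 genes with the largest CTD excess all lacked H3K36me2 peaks in both lists, so their fold difference is a lower bound against 3 peaks a list. BUB1B, a kinase of the spindle checkpoint, had 26, 19 and 16 CTD peaks in lists 1 to 3, at least 6.78-fold more than H3K36me2. POLR1A, the catalytic subunit of RNA polymerase I, had 29, 18 and 35 CTD peaks (at least 9.11-fold). Both genes are expressed in most dividing cells. TPX2, another spindle assembly gene, had 24, 18 and 16 CTD peaks, and NUP160, a nuclear pore subunit, 24, 26 and 17. Also among the 10 were the ubiquitin pathway genes USP36, ARIH2 and LRSAM1, the phosphoinositide phosphatase gene MTMR14 and the acyl-CoA dehydrogenase gene ACAD10, with lower bounds between 5.44-fold and 7.67-fold. Limma adjusted p for the 10 genes lay between 5.33e-06 and 0.000134.

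Of the 10 genes with the largest H3K36me2 excess, 8 lay in the run of chromosome 13. GPC5, a glypican gene of 1475 kb, had 227 and 238 H3K36me2 but 9, 1 and 2 CTD peaks, 58.1 times as many on average. MYO16, an unconventional myosin gene, had 101 and 109 against 5, 2 and 4 (28.6 times), and HS6ST3, a heparan sulfate sulfotransferase gene, 114 and 111 against 8, 2 and 4 (24.1 times). The splicing regulator MBNL2 had 27 and 28 against 1, 0 and 1, and NALCN, a sodium leak channel, 65 and 70 against 4, 4 and 4. ITGBL1, GGACT and TNFSF13B completed the 8, the last with 6 and 4 H3K36me2 and 0, 0 and 0 CTD peaks (at least 1.67-fold more). Outside chromosome 13 were PLAC1, a placental gene on X, with 49 and 50 H3K36me2 and 7, 2 and 3 CTD peaks, and ENSG00000286015 on chromosome 1, with 13 and 11 against 1, 1 and 0. The CTD lists held so few peaks in these genes that the folds rest on single-digit counts.

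Lists of genes with known functions are described by their counts and medians, beside the 44.7% of all tested genes called for the CTD, the 12.4% called for H3K36me2 and the median log2 difference of 0.50. Of 30 nucleotide excision repair genes, 10 were long enough to be tested, of which 9 had more CTD and 1 more H3K36me2 peaks (background 44.7% and 12.4%), with a median log2 difference of 2.73. LIG1, the ligase that closes repair patches, had 14, 12 and 19 CTD peaks and no H3K36me2 peak, and RPA1, which coats single-stranded DNA, 6, 17 and 20 and none. POLE had a log2 difference of 3.51 and CUL4A, the cullin of the DDB2 ubiquitin ligase, 3.11. The exception was RPA3, with 15, 18 and 15 CTD and 28 and 22 H3K36me2 peaks (−0.61, limma adjusted p = 0.0283). Over all 30 genes the CTD had 233.8 ± 13.7 and H3K36me2 46.5 ± 4.45 peaks per Mbp.

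Genes of H3K36 and H3K4 methylation include writers and erasers of the mark. Of 18, 13 were tested, 10 had more CTD and none more H3K36me2 peaks (background 44.7% and 12.4%), and the median log2 difference was 1.92. KDM4A, a demethylase of H3K9 and H3K36, had 14, 16 and 20 CTD and no H3K36me2 peaks, and KMT2A, an H3K4 methyltransferase, 9, 19 and 12 and none. NSD2 and NSD1, which dimethylate H3K36, had log2 differences of 2.49 and 2.30. Over the 18 genes the densities were 180.4 ± 7.997 and 61.3 ± 5.03 peaks per Mbp. Of 14 p53 target genes 3 were tested and none was called in either direction.

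Of the 14 large genes at common fragile sites, 8 were called for H3K36me2 and 1 for the CTD (background 12.4% and 44.7%), with a median log2 difference of −0.58, and 122.3 ± 9.71 CTD and 167.5 ± 0.166 H3K36me2 peaks per Mbp. NAALADL2, within the run of chromosome 3, had 74, 70 and 49 CTD and 333 and 329 H3K36me2 peaks (−2.16, limma adjusted p = 0.00015). IMMP2L, a mitochondrial peptidase gene, had 44, 63 and 53 against 173 and 188 (−1.61). RBFOX1, a neuronal splicing factor gene, was the one called for the CTD, with 642, 615 and 628 against 166 and 146 (1.86, limma adjusted p = 2.3e-05). Its GC content was 42.4%, against a median of 36.7% in the list.

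Genes of the osteoblast lineage, from which osteosarcoma is thought to derive, were split. Of 14, 4 were tested: RUNX2, the lineage's master transcription factor, had 87, 72 and 84 CTD and 126 and 129 H3K36me2 peaks (−0.64) and TWIST1 20, 20 and 20 and 34 and 33 (−0.72). FN1, the fibronectin gene, had 21, 13 and 22 CTD and 1 and 2 H3K36me2 peaks (3.11). In FN1 the mark was nearly absent while the CTD stood above its genome-wide density, and in RUNX2 both exceeded it, with 240.9 ± 23.6 CTD and 379.2 ± 6.31 H3K36me2 peaks per Mbp.

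Clustered families are given with the reserve that their members overlap or share sequence. Of 240 zinc finger genes of chromosome 19, 33 were tested, and 19 had more CTD and 1 more H3K36me2 peaks. With 44.7% and 12.4% of all tested genes called, the count for the CTD is near the background and is not a result about this family. The densities over all 240 were 174.7 ± 5.05 and 46.5 ± 0.185 per Mbp. The CTD density was thus near the genome-wide value and that of the mark far below it. ZNF578 had the largest difference (3.89), and ZNF675 was the one called for H3K36me2 (−2.12, limma adjusted p = 0.0382). Of 33 tested protocadherin genes 32 were called for the CTD (background 44.7%), and over all 53 the densities were 239.3 ± 11.46 and 114.7 ± 22.5. Since these genes contain one another, the 32 calls are not separate events. The 80 cytosolic ribosomal protein genes had 263.5 ± 15.0 CTD and 57.5 ± 8.47 H3K36me2 peaks per Mbp, with 2 genes long enough to be tested and none called. The HOX genes, homeotic regulators of body patterning, had 279.5 ± 48.6 and 169.0 ± 12.4, with both assays well represented. HOXB3 was the only one tested and was called for the CTD (0.87). Olfactory receptor genes (171.6 ± 3.57 and 176.3 ± 5.79) and histone genes of chromosome 6 (165.3 ± 35.1 and 139.7 ± 9.88) had overlapping lists. Among 5 olfactory receptor genes tested, OR3A2 was called for the CTD.

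Although their landscapes differed, CTD and H3K36me2 peaks met more often than the share of genome covered by the mark. The centres of 23.4 ± 1.53% of CTD peaks (SD, n = 3 CTD lists, each averaged over both H3K36me2 lists) lay inside an H3K36me2 peak, which covered 14.0% of the genome, a ratio of 1.67 ± 0.109. This ratio depended on the class of sequence. It was 1.83 in intergenic sequence, 1.53 in gene bodies and 1.195 ± 0.0619 at gene starts. In bins under 37% GC it was 2.34 ± 0.337 and in those of 46% or more 1.25 ± 0.0546, and it was 2.58 ± 0.315 in bins without a start and 1.31 ± 0.0435 in those with at least 20. Where the CTD was densest, its peaks thus fell on the mark little more often than the coverage there. In 1-kb windows under 35% GC, which peaks of both assays avoided, the ratio was 3.13 ± 0.492, and at 60% GC or more 1.16 ± 0.00803. The variation of GC content within larger classes enters the ratios of those classes, and how much was not tested. The covered share was taken over all sequence without gaps. This includes regions where the study's filters on mapping quality and blacklisted regions left no reads. Such regions lack peaks of both assays, which raises the ratio, and by how much was not tested.

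The distance from a CTD peak to the nearest H3K36me2 peak had a median of 869 ± 8.43 bp (SD, n = 3). Of the CTD peaks, 33.96 ± 1.22% overlapped an H3K36me2 peak, 51.9 ± 0.174% were within 1 kb of one, 76.5 ± 0.861% within 5 kb, and 14.3 ± 0.684% more than 10 kb away. In the other direction, H3K36me2 peaks overlapped a CTD peak in 32.4 ± 0.514% and had one within a median of 802 ± 21.0 bp (SD, n = 2), but only 4.90 ± 0.150% were more than 10 kb from one. The CTD therefore had the longer tail of distances. With peaks of a −log10 p of 2 or more, which are fewer, the median from the CTD to H3K36me2 was 4145 bp.

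Distances between lists of 1 assay give the scale for these values. From a CTD list to another CTD list, 33.1 ± 0.667% of peaks overlapped, the median distance was 640 ± 25.2 bp and 2.36 ± 0.354% were beyond 10 kb. Overlap of CTD peaks with the mark was thus about as frequent as overlap with another CTD list, with H3K36me2 peaks covering more of the genome. H3K36me2 lists overlapped each other in 65.2 ± 0.168% of peaks.

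The tail was longest in gene-rich and GC-rich sequence. The median distance from a CTD peak to H3K36me2 was 313 ± 153 bp in bins under 37% GC and 3626 ± 46.04 bp in bins of 46% GC or more, where 30.0 ± 0.242% of CTD peaks had no H3K36me2 peak within 10 kb. It was 375 ± 104 bp in bins without a start and 3918 ± 153 bp in bins with 20 or more. By feature it was 440 ± 40.6 bp in intergenic sequence, 1541 ± 48.8 bp in gene bodies and 2081 ± 26.6 bp at gene starts, where 17.9 ± 0.268% of CTD peaks overlapped the mark. Peaks with higher fold enrichment were no closer to it: in 4 equal groups of CTD peaks from the lowest to the highest fold enrichment, 35.95, 33.96, 33.80 and 32.12% overlapped an H3K36me2 peak.

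The contrasts of density given here were also present without UV, at a smaller size. The log2 ratio of CTD to H3K36me2 was 0.94 at gene starts without UV and 1.42 after it, 0.65 and 1.22 in bins of 46% GC or more, and −0.46 and −0.75 in bins under 37% GC. In bins with 20 or more starts it was 0.69 without UV and 1.202 after it. Over the 95 classes, this change was tested by two-sided exact permutation (120 arrangements of the lists over the times within each assay). The unadjusted p was under 0.05 for 3 classes and the adjusted p for none, with a smallest adjusted p of 0.279. The smallest unadjusted p, 0.0167, is the lowest that this permutation test can give. An adjusted p under 0.05 would need many classes at that value, so a change limited to a few classes could not pass. Contact between the assays was not smaller without UV. CTD centres lay inside H3K36me2 peaks at 1.66 ± 0.194 times the covered share without UV and 1.67 ± 0.109 times after it. The median distance from CTD to H3K36me2 peaks was 663 ± 122 bp without UV and 869 ± 8.43 bp after it, which was not tested. The CTD control was pooled at 3 h and unpooled without UV, so UV and this step cannot be told apart. At gene starts the CTD lists went from 252.5 ± 31.4 peaks per Mbp without UV to 264.4 ± 46.5 after it, less than the SD of either, and the H3K36me2 lists from 131.0 ± 6.75 to 98.1 ± 4.25. Limma called a changed ratio in 0 of 2921 bins (0.0%), although 351 had an unadjusted p under 0.05, and in 14 of 6777 genes (0.207%), a number that became 0 without CTD list 2 of unirradiated cells and 41 without H3K36me2 list 1 at 3 h. All 14 had a higher ratio of CTD to H3K36me2 after UV, and in all 14 both H3K36me2 lists had fewer peaks after UV than without it. PIEZO1, a mechanosensitive ion channel gene, had 26, 21 and 33 CTD peaks after UV and 20, 19 and 13 without it, and 1 and 1 H3K36me2 peaks after UV and 8 and 11 without it.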

How the data were processed

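The authors trimmed reads (Trim Galore 0.6.5), aligned them to hg38 (BWA 0.7.17-r1188), filtered alignments (SAMtools 1.7, Picard, bedtools 2.29.2) and ran MACS2 2.2.7.1 in broad mode on each replicate, tools and versions being those of the submitters' processing notes. The deposited lists give each peak's fold enrichment, a ratio of ChIP to control, with −log10 of p and of q, all by the authors. They carry no read depth, so precision rests on the spread between lists. The p-values measure only the spread between replicates, which are labelled as biological. That spread may still be technical in part.

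All listed peaks were used, because lists of 500000 peaks each compare directly, except those on ASH1L. A peak counted where its centre lay. Starts, bodies and lengths came from GENCODE 44 (protein-coding genes), GC content from hg38. For densities per Mbp, exact permutation over lists was used, two-sided. Bins of 1 Mb with at least 0.5 Mbp of sequence and genes of 50 kb or more were compared with limma 3.58.1 (R 4.3.3) on log2 (peaks per Mbp + 10) over all 10 lists in 4 groups, without a block, adjusted by the Benjamini-Hochberg method over all bins or genes. The intervals and fits were tested on simulated data, in which the fit of genes missed most changes of 2-fold and that of bins found most of them. The simulated counts were drawn independently for each list with a fixed spread and without a shared control. These rates therefore need not hold for the real lists. Python 3.11.15, NumPy 2.4.6, pandas 2.3.3, SciPy 1.17.1, matplotlib 3.10.9 and bedtools 2.31.1 were used.

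Named in the text were the 5 bins and 10 genes with the largest called difference in each direction whose lists did not overlap, up to 5 starts of each kind ranked by the lowest fold enrichment, the 3 chromosomes at each end, and up to 4 called members of each gene list. The lists, classes and rules were chosen with earlier results of these data known. A few named genes and 1 sequence that these rules chose are not reported here. RPA3, ZNF675, PIEZO1 and the runs of bins fell outside these rules and were picked once their values were known. Alternatives were peaks found in another list of the group, a −log10 p of 2 or more, the 100000 strongest peaks, bases covered, other windows, annotations, pseudocounts and size limits, the replicate number as a block (for densities, only lists 1 and 2 of each assay), and each list left out in turn.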

Additional observations from a re-analysis of the deposited data

Results flagged for a closer look

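For 14 genes the ratio of CTD to H3K36me2 peaks differed between the lists after UV and those without UV in a test of that difference itself (limma interaction term, adjusted p from 0.00939 to 0.0469, 14 of 6777 genes). The log2 change of the ratio, after UV minus without UV, of the 13 of these genes given here was 3.64 in SLC38A10, 3.29 in TMEM104, 3.26 in DZIP1L, 3.17 in PIEZO1, 2.89 in LRRC4B, 2.67 in DNAJC11, 2.59 in USP33, 2.59 in ENSG00000286001, 2.55 in USP36, 2.01 in RGPD8, 1.78 in SPG7, 1.63 in CA5A and 1.58 in NKAIN1. The median GC content of the 14 was 51.3%. The counts behind them were small. In DZIP1L, a gene of primary cilia, the H3K36me2 lists had 0 and 0 peaks after UV and 3 and 3 without it, and the CTD lists 9, 8 and 10 after UV and 6, 6 and 6 without it. In USP33, a deubiquitinase gene, the H3K36me2 lists went from 4 and 4 to 0 and 0 while the CTD lists went from 18, 17 and 16 to 14, 13 and 15. RGPD8 had a single CTD peak in all 6 CTD lists and 2 and 2 H3K36me2 peaks without UV against 0 and 0 after it, and belongs to a family of nearly identical copies, which makes its peaks uncertain. All CTD lists after UV exceeded all those without it in 3 of the 14 genes, and all lay below them in 2. Replicate counts that are equal, as in several of these genes, leave little spread for the test, and with the replicate number as a block 0 genes were called.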

How the results depend on the processing

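The 6 density contrasts (gene starts, gene bodies, intergenic sequence, gene-rich against gene-poor bins, GC-rich against GC-poor bins, first against last part of genes divided into 10) kept their direction in all 71 alternatives run on them. With all annotated genes in place of protein-coding ones the log2 ratio at gene starts was 0.57 and in gene bodies 0.11. Leaving out each list in turn gave 1.28 to 1.51 at gene starts, 0.29 to 0.30 in gene bodies, −0.28 to −0.26 in intergenic sequence, 1.65 to 1.91 by gene density, 1.76 to 2.09 by GC content and −0.36 to −0.31 along genes. Same-numbered lists did not deviate together (9 correlations between −0.535 and 0.128), so the numbers were not taken as pairs. Deviations were taken from the group mean and are mirror images in a group of 2 lists. The 9 values are therefore not independent, and the check cannot exclude a pairing. With the replicate number as a block the log2 ratios were 1.28, 0.29, −0.26, 1.65, 1.76 and −0.31 in the same order, and 847 and 922 bins and 2805 and 707 genes were called with more CTD and more H3K36me2.

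The measures of contact moved with the number of peaks. The share of CTD centres inside H3K36me2 peaks was 21.1% with peaks found in another list of the group, 14.1% with a −log10 p of 2 or more and 6.97% with the 100000 strongest peaks, but these sets also covered less of the genome, and the ratio to the covered share was 1.88, 1.86 and 1.87. The median distance was 2100, 4145 and 12086 bp in the same order, with fewer peaks in each set by construction. Leaving out a list gave 22.6 to 24.1% and 850 to 888 bp.

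Calls depended on how many peaks entered. With a −log10 p of 2 or more, 517 and 370 bins and 249 and 78 genes had more CTD and more H3K36me2, and 13 named genes were no longer called (adjusted p 0.0552 to 0.687). With peaks found in another list 1357 genes had more H3K36me2, and TNFSF13B was no longer called. More CTD was called in 5922 of 11617 genes of 20 kb or more and in 1309 of 3660 genes of 100 kb or more. Leaving out a list gave 750 to 924 and 739 to 1124 bins, and 2462 to 3103 and 455 to 906 genes. The lowest gene count for H3K36me2, 455, arose without either H3K36me2 list at 3 h, where the lone list is assumed to vary like the other groups. Without the run of chromosome 13, an alternative added after the data were seen, 1028 bins and 815 genes had more H3K36me2.

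The UV calls moved as well. A higher ratio of CTD after UV was called in 627 bins with peaks found in another list, 1 bin with a −log10 p of 2 or more and 0 to 7 bins when a list was left out (7 without CTD list 1 of the cells without UV). A lower ratio was called in 417 bins with peaks found in another list, in 1 with a pseudocount of 50, in 1 with at least 0.9 Mbp per bin, and in 0 to 1 without a list. For genes, the ratio was higher after UV in 110 with a pseudocount of 1, 0 with a pseudocount of 50, 1433 with peaks found in another list, 8 with a −log10 p of 2 or more, 0 with the replicate block, 174 of those of 20 kb or more, 0 of those of 100 kb or more, and 0 to 41 without a list. It was lower in 19, 533, 10 and 10 genes with a pseudocount of 1, peaks found in another list, a −log10 p of 2 or more and genes of 20 kb or more, and in 0 to 2 without a list. The cause was not tested for any of these changes, apart from the amounts of peaks, genes or lists that an alternative itself sets. The lists carry no read depth, which limits the precision of every value to the spread between lists.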
